A study of Homo sapiens with 9 samples.

Results

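Cytosolic ribosomal protein genes encode the structural proteins of the large and the small subunit of the ribosome that works in the cytoplasm. They were followed on 9 Affymetrix 3′ arrays of MDA-MB-231, an established human breast cancer cell line of mesenchymal character that lacks the oestrogen receptor. Of the 11963 genes that have a probe set with 1 gene symbol, 55 were members: genes named RPL or RPS with a number, or RPLP1 and RPLP2 of the stalk. Of these members, 35 belong to the large subunit and 20 to the small subunit. They carry 93 probe sets, a probe set being the group of short probes that reads 1 transcript, and each gene was represented by its probe set with the highest mean. Kinases of RPS6, RPS27L and pseudogenes were left out. A further 57 probe sets list a member symbol together with other symbols, mostly of small nucleolar RNAs hosted in the introns, and for that reason 16 ribosomal protein genes, among them RPL4, RPL5, RPS2 and RPS3A, are not members.

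Every group consisted of MDA-MB-231 cells carrying an integrated pLKO lentivirus, grown in DMEM with 10% fetal bovine serum. The control cells expressed a scramble hairpin, and the others expressed shRNA #2 (shco2) or shRNA #4 (shco4), both directed at Coco, the product of the gene DAND5 and a secreted antagonist of BMP, Nodal and Wnt ligands. Each group had 3 biological replicates, so 3 arrays. Whether the lines were clonal is not given in the sources used here, and each hairpin stands for 1 transduced line, so a difference between lines cannot be told apart from an effect of the hairpin. No probe set in the annotation used is named DAND5, so the knockdown itself was not checked here.

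Levels are deposited intensities on a log2 scale. Array medians lay between 122 and 129 intensity units, arrays of 1 group correlated at 0.986 to 0.992 across probe sets and arrays of different groups at 0.960 to 0.980. Of the markers of mesenchymal breast cancer lines, VIM, encoding vimentin, had a mean log2 level of 13.59 in the scramble cells, and AXL had 13.19. Of the 6 such markers listed, 4 fell and 0 rose with shRNA #2 at an adjusted p under 0.05 (median log2 difference -0.42). With shRNA #4, 2 fell and 1 rose (median -0.09). Over all probe sets 9.95% fell and 10.7% rose with shRNA #2, and 9.75% and 9.05% with shRNA #4. FOXA1 lay at the floor in all groups and ESR1, encoding the oestrogen receptor, was near it at 4.66, although the luminal keratin gene KRT19 reached 12.27 and GATA3 reached 9.26. The blood cell markers PTPRC and CD3E stood at 4.25 and 5.06. LUM, a fibroblast marker, rose by 3.34 with shRNA #4 (adjusted p = 0.0012) and CD14 rose by 1.42 (adjusted p = 0.049), while PDGFRA, at 4.04 in those cells, was near the floor.

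Ribosomal protein mRNAs are among the most abundant mRNAs of dividing cells. Many of them begin with a C followed by a run of pyrimidines, the 5′ terminal oligopyrimidine or TOP motif, through which mTORC1 and the RNA-binding protein LARP1 adjust their translation and stability. Their proteins are made in near equal amounts, and surplus RPL5 and RPL11 bind MDM2 together with the 5S rRNA, which links ribosome assembly to p53. MDA-MB-231 cells carry a mutant p53, and its activity was not tested here.

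Sequence at the annotated start of transcription was available from RefSeq (GRCh38.p14) for 47 of the 55 members. A start was counted as TOP-like where its first base was a C followed by at least 4 pyrimidines, at any listed start of the gene. This was so in 33 of the 47 members (70.2%), against 1404 of 27305 genes in the table (5.14%). The share was 67.9% for the large and 73.7% for the small subunit genes. The following windows of 30 bases, 15 on either side of the start, belong to members that were called different from scramble with at least 1 hairpin, and are shown to set those with the run beside those without it. Capitals mark the pyrimidine run that begins at the start, and the sequence is that of the gene's strand.

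RPL11 (chr1:23691791-23691820, plus strand): cggaagctccgctttCTCTTCCTgctctcc

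RPL12 (chr9:127451392-127451421, minus strand): ccgcgcgatttccggCCTCTCggctttcgg

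RPL24 (chr3:101686704-101686733, minus strand): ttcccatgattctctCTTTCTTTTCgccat

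RPS16 (chr19:39435935-39435964, minus strand): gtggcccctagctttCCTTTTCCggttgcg

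RPS25 (chr11:119018329-119018358, minus strand): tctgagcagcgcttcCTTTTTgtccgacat

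RPS27 (chr1:153990747-153990776, plus strand): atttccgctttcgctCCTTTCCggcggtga

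RPL3 (chr22:39319609-39319638, minus strand): gtaaggccgaccggcctctaccggcgggat

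RPL27 (chr17:42998404-42998433, plus strand): ccggggtgaaaggttagcggaagtgtcctt

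RPL36AL (chr14:49620612-49620641, minus strand): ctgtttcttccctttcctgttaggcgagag

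RPS4X (chrX:72277234-72277263, minus strand): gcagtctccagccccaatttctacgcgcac

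The first 6 carry the run and the last 4 do not at their listed start. RPL3 begins with CTCT, just short of the cutoff, and the start of RPL36AL lies inside a longer stretch of pyrimidines. RPL11 and RPL36AL, which showed 2 of the largest differences between the hairpins below, stand on different sides of this division by their listed starts. RPL36AL is a copy of RPL36A derived from a reverse-transcribed mRNA. In windows of 300 bases, from 250 before to 50 after a start, the letters CGGAAG, the core of ETS family motifs, were found on either strand in 32 of the 47 members (68.1%) and in 22.6% of all genes. AAGATGG, the core of the YY1 motif, was found in 10.6% of members and 7.11% of all genes, and TATAAA in 8.51% and 14.0%. On the opposite strand, matches of CGGAAG and AAGATGG can overlap the pyrimidine run. The proteins of the mitochondrial ribosome, which are also encoded in the nucleus, had a TOP-like start in 8.7% of 46 genes and CGGAAG in 56.5%.

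Most ribosomal protein genes were near the top of the intensity range. The mean log2 level over the 9 arrays was at least 12 for 50 of the 55 members and at least 13 for 43. RPS10, a small subunit protein, was the brightest, with 14.14, 14.03 and 14.04 on the scramble arrays, 14.09, 13.90 and 13.96 with shRNA #2, and 14.22, 14.29 and 14.19 with shRNA #4. The arrays with shRNA #4 were the highest of the 9, and those of the other groups overlapped. RPL3L, the heart and skeletal muscle copy of RPL3, was the dimmest and lay at the floor of 4.00 on all 9 arrays. RPL10L, a retrogene copy active in testis, was between 4.00 and 5.78. The probe sets used for RPLP2 and RPL27A were also low, between 6.71 and 7.34 and between 9.03 and 9.60, and an intensity is specific to its probe set, so these are not levels of 1 mRNA against another. For 13 members the probe set used is of the kind whose probes also match further sequences, so transcripts of pseudogenes or copies are not separated there.

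With shRNA #2, 6 of the 55 members fell and 0 rose against scramble by limma, calls being made at an adjusted p under 0.05. At an unadjusted p under 0.05, 12 were lower and 0 higher. The 6 were RPL3, RPL12, RPL11 and RPL30 of the large subunit and RPS4X and RPS27 of the small subunit. Over all 22215 probe sets 9.95% were called lower and 10.7% higher. At the unadjusted threshold 3281 of the 22215 were lower and 3717 higher. The median difference of the members was -0.07 on the log2 scale, against 0 over all probe sets. In RNA of whole cultures, fewer cells with an mRNA and less of it per cell cannot be told apart. In 12 members all arrays with shRNA #2 lay below all scramble arrays, and in 0 members above, where 16.4% and 19.4% of all probe sets did so.

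RPL3, which reaches towards the peptidyl transferase centre, measured 12.94, 12.99 and 12.89 in scramble cells, and 12.65, 12.64 and 12.70 with shRNA #2. The groups did not overlap, and RPL3 was 1.21-fold lower (log2 difference -0.28 ± 0.032 SE, adjusted p = 0.0021). RPS4X, the X-linked small subunit protein, measured 13.71, 13.58 and 13.66 against 13.47, 13.43 and 13.42. It was 1.16-fold lower with shRNA #2 (log2 difference -0.21 ± 0.035 SE, adjusted p = 0.0080), and these calls of RPL3 and RPS4X were kept when any 1 array was left out. The second probe set of RPS4X differed by -0.08 and was not called (adjusted p = 0.63).

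RPL12, at the base of the stalk, fell by 0.22 (adjusted p = 0.023), and its second probe set fell by 0.18 (adjusted p = 0.0053). RPL11 fell by 0.10 (adjusted p = 0.020), from 13.16, 13.20 and 13.21 to 13.11, 13.05 and 13.11. The call of RPL12 was lost on leaving out any of 4 arrays (highest adjusted p = 0.076), and that of RPL11 without scramble replicate 2 or 3 (highest adjusted p = 0.067). The calls closest to the threshold were those of RPL30, lower by a log2 difference of -0.17 (adjusted p = 0.049), and RPS27, with a difference of -0.14 (adjusted p = 0.048). Both passed the threshold narrowly, and each call was lost on leaving out any of 8 of the 9 arrays. The count of 6 became 3 without any 1 scramble array and without replicate 2 or 3 of shRNA #2, and 9 without replicate 1 of shRNA #2.

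With shRNA #4 the members lay on the other side of the scramble cells: 11 rose and 1 fell. Over all probe sets 9.05% were called higher and 9.75% lower. The median difference was 0.12, and 50 of the 55 members had a difference above 0. In 34 members all arrays with shRNA #4 lay above all scramble arrays, and in 1, RPL39L, below them. Over all probe sets the groups separated in this way in 16.7% upwards and 15.9% downwards.

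RPL11 measured 13.43, 13.45 and 13.45 with shRNA #4, above each scramble array, a rise of 0.25 ± 0.021 SE (1.19-fold, adjusted p = 0.00097). RPL27, a large subunit protein, went from 13.49, 13.48 and 13.51 to 13.68, 13.73 and 13.66, a rise of 0.20 ± 0.019 SE (adjusted p = 0.0016). RPS25, a small subunit protein needed by several internal ribosome entry sites, measured 12.76, 12.74 and 12.83 in scramble cells and 13.04, 13.11 and 12.98 with shRNA #4. Its rise of 0.27 (adjusted p = 0.0044) and the rise of 0.24 in RPS16 (adjusted p = 0.0081) were kept on leaving out any 1 array, as were those of RPL11 and RPL27.

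RPL36AL had the largest rise, 0.32 ± 0.071 SE (1.25-fold, adjusted p = 0.024), with 12.46, 12.55 and 12.51 against 12.11, 12.12 and 12.32. Its arrays did not overlap, but the call was lost on leaving out any of 5 arrays. RPS15A rose by 0.25 (adjusted p = 0.024), RPL39 by 0.19 (adjusted p = 0.020) and RPL24 by 0.18 (adjusted p = 0.024), and each of these was lost on leaving out any of 3 or 4 arrays. The remaining rises were those of RPL37, RPL7 and RPL9, between 0.15 and 0.18. The signs of RPL37, RPL7, RPL9 and RPL24 depended on the scaling, as given at the end. The count of rises was 5 without replicate 1 or without replicate 2 of shRNA #4, and 16 without replicate 1 of shRNA #2.

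**Figure D1:**
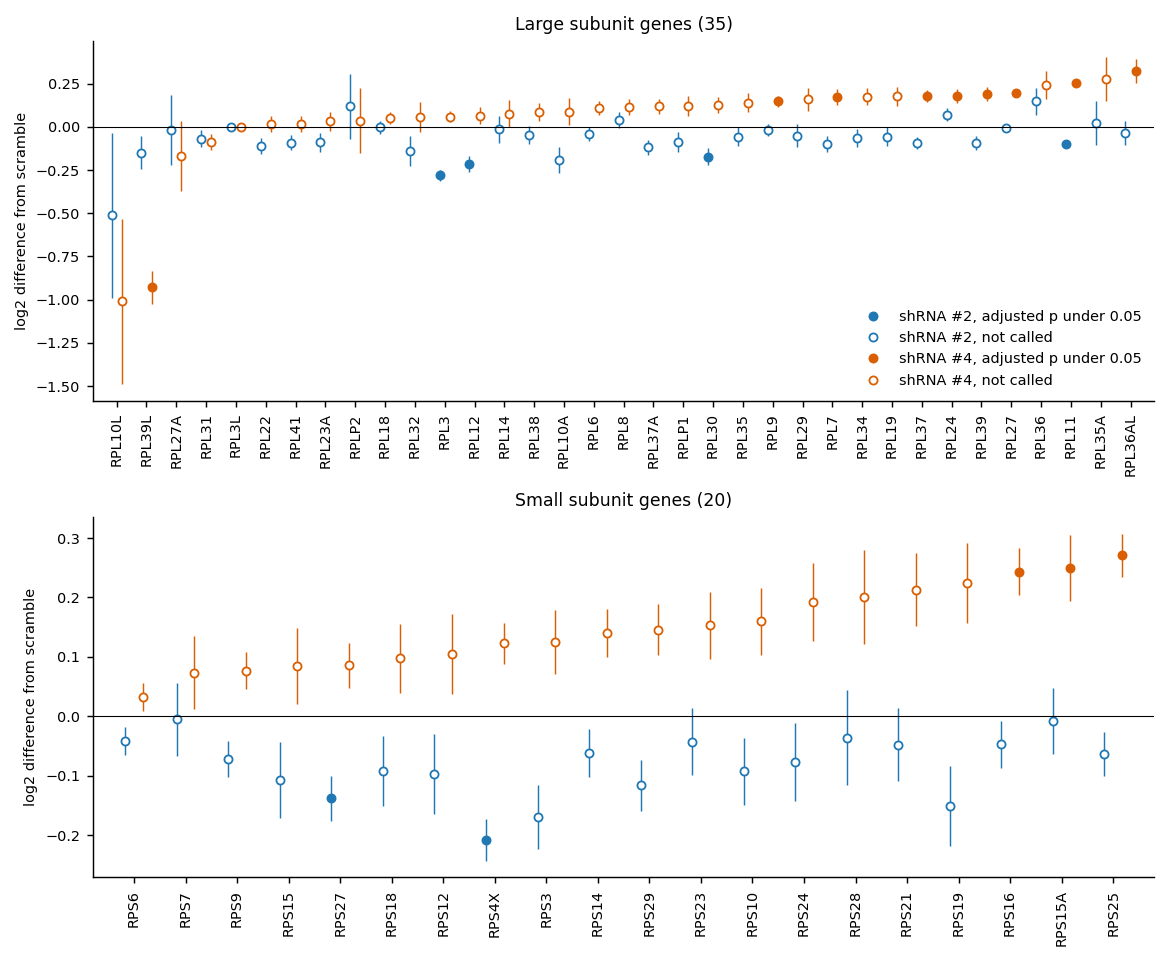
Log2 difference from scramble of each of the 35 large and 20 small subunit genes with shRNA #2 (blue) and shRNA #4 (orange), with standard errors from the fit over 9 arrays; filled points had an adjusted p under 0.05. Most members lie within about 0.3 of 0 on the log2 scale, shRNA #2 mostly below it and shRNA #4 mostly above it, and RPL39L stands apart with shRNA #4 at -0.93. RPL10L, at or near the floor, lies at -0.51 with shRNA #2 and -1.01 with shRNA #4 and was not called.

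The direct comparison of the hairpins gave the most calls, 31 members higher with shRNA #4 than with shRNA #2 and 1 lower. Over all probe sets 14.9% were called higher and 16.1% lower. The median difference was 0.20, against 0 over all probe sets. In 41 members the 3 arrays with shRNA #4 lay above the 3 with shRNA #2, and in 1, RPL39L, below them, where 20.1% and 20.8% of all probe sets did so. The 3 comparisons share arrays, so these counts are not independent of those above.

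RPS19, a small subunit protein that is mutated in Diamond-Blackfan anaemia, showed the largest rise, 0.37 ± 0.067 SE (adjusted p = 0.0064). It measured 13.84, 13.67 and 13.67 with shRNA #2 and 14.16, 14.11 and 14.05 with shRNA #4, and the scramble arrays lay between 13.82 and 13.99. RPL36AL followed with 0.36 (adjusted p = 0.0094) and RPL11 with 0.35 (adjusted p = 0.00012). RPL3 was higher by 0.34 (adjusted p = 0.00052), RPS25 by 0.33 (adjusted p = 0.00089) and RPS4X by 0.33 (adjusted p = 0.00078). The other called rises lay between 0.15, for RPS9, and 0.30, for RPL30. The sign for RPS9 turned under other scalings, as given at the end. The 5 members with a difference below 0 were RPL39L, RPL10L, RPL27A, RPLP2 and RPL31, and RPL39L alone of these was called.

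With shRNA #4 and between the hairpins, the members' differences were of the size at which other bright probe sets and the hybridization controls also differed. With shRNA #2, other bright probe sets lay lower as well, and the controls differed little. Among 157 other probe sets with a mean log2 level of at least 13, the median was -0.12 with shRNA #2, 0.12 with shRNA #4 and 0.24 between the hairpins. Of them, 8 were called higher and 42 lower with shRNA #2, 39 and 6 with shRNA #4, and 92 and 2 between the hairpins. The 18 probe sets for bacterial and phage transcripts added as hybridization controls averaged 10.39 ± 0.085 (SD, n = 3) in scramble, 10.38 ± 0.13 with shRNA #2 and 10.58 ± 0.070 with shRNA #4. The 4 of them for cre, the brightest, averaged 13.34, 13.32 and 13.52. So the controls differed by -0.01 between shRNA #2 and scramble, by 0.19 between shRNA #4 and scramble and by 0.20 between the hairpins. Their part in the members' differences was not tested.

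**Figure D2:**
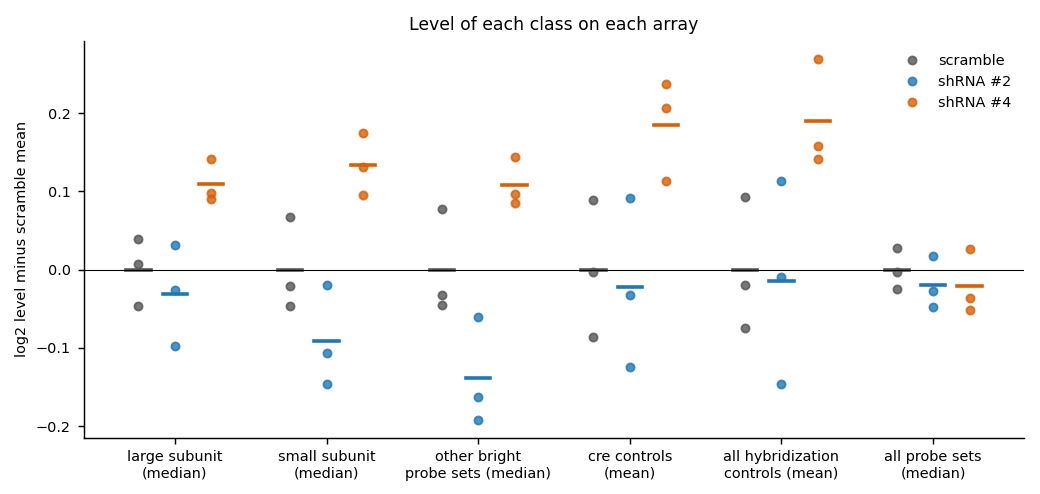
Level on each array, minus the scramble mean, of the median large and small subunit gene, the median of the 157 other probe sets with a mean log2 level of at least 13, the mean of the 4 cre and of all 18 hybridization controls, and the median of all probe sets; points are arrays and bars group means. The arrays with shRNA #4 lie above the scramble mean for both subunits, for the other bright probe sets and for the controls, and the median of all probe sets does not share this.

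The counts depended on the scaling and on the floor. Quantile normalization, which gives every array the same distribution, left 4 members higher and 3 lower with shRNA #2, 3 and 4 with shRNA #4, and 3 and 7 between the hairpins, with medians of 0.02, 0.00 and -0.02. Under it, 2390 of all 22215 probe sets were higher and 2207 lower, then 2138 and 2118, and 3248 and 3574, in the same order. Of the calls above, RPL3, RPL30 and RPS4X with shRNA #2, RPL39L, RPS16 and RPS25 with shRNA #4, and RPL3, RPL30, RPL39L and RPS19 between the hairpins were made under it in the same direction. With each array centred on its hybridization controls, an alternative added after the data were seen, RPL39L was the only member called, lower with shRNA #4 in both comparisons. The medians were then -0.05, -0.07 and -0.0013, while all probe sets together moved by -0.19 with shRNA #4 and by -0.20 between the hairpins. Under this centring 815 probe sets were called higher and 3185 lower with shRNA #4, against 2011 and 2167 before. With a floor of 1 in place of 16, the members called with shRNA #2 were 0, those with shRNA #4 were RPL39L alone, and 9 were higher and 1 lower between the hairpins. Of all probe sets 3860, 3322 and 6464 were called with this floor in the 3 comparisons.

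**Figure D3:**
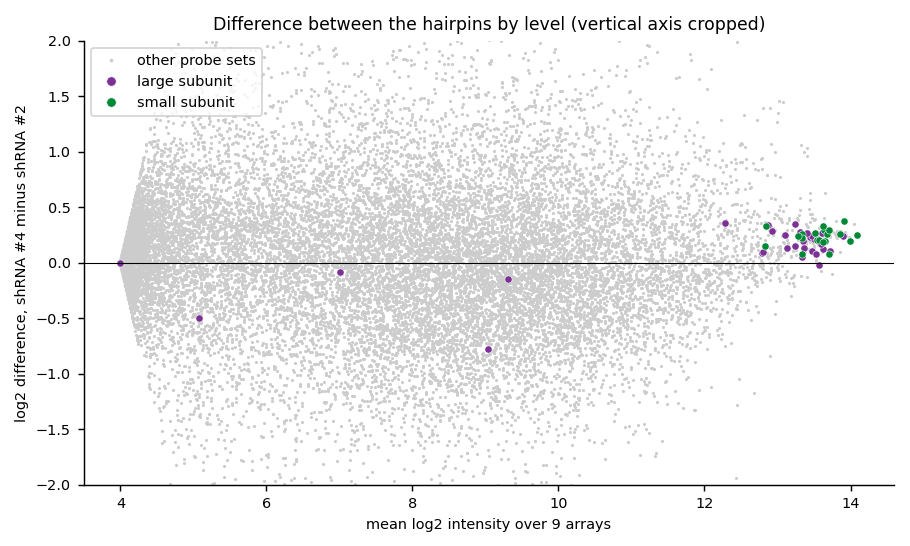
Log2 difference between shRNA #4 and shRNA #2 against the mean log2 intensity over 9 arrays, for the ribosomal protein genes of the large (purple) and small (green) subunit and for all other probe sets (grey); the vertical axis is cropped at 2 and -2. Most members lie above a mean of 12 and a little above 0, in a region where other probe sets lie above 0 as well.

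The members were also counted by subunit. With shRNA #2, 4 of 35 large subunit genes and 2 of 20 small subunit genes fell, with medians of -0.06 and -0.07, and both shares are near the 9.95% called lower over all probe sets. With shRNA #4, 8 large subunit genes rose and 1 fell (median 0.12), and 3 small subunit genes rose (median 0.14), against 9.05% of all probe sets called higher. Between the hairpins 17 large subunit genes were higher and 1 lower (median 0.19), and 14 small subunit genes were higher (median 0.24), against 14.9% of all probe sets. All 20 small subunit genes had a difference above 0 between the hairpins, as did 29 of the 35 large subunit genes. The members with a mean log2 level under 12, RPL3L, RPL10L, RPL39L, RPL27A and RPLP2, are all of the large subunit. Of the 50 members at 12 or more, 49 had a difference above 0. The large minus small difference of medians was 0.01, -0.03 and -0.05 in the 3 comparisons. Taken on each array instead, the median large subunit level minus the median small subunit level differed by 0.06 between shRNA #2 and scramble, by -0.02 between shRNA #4 and scramble and by -0.08 between the hairpins, with an SD within a group of 0.018 to 0.047 (n = 3). The difference between subunits has no test of its own.

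Ordered by role, the proteins of the P stalk, which recruits elongation factors, are represented by RPL12, RPLP1 and RPLP2. RPL12 and RPLP1 were higher with shRNA #4 than with shRNA #2, by 0.28 (adjusted p = 0.0054) and 0.21 (adjusted p = 0.033), and RPLP2 differed by -0.09 and was not called. The call of RPLP1 was lost on leaving out any of 4 arrays (highest adjusted p = 0.097), and its difference became -0.024 under quantile normalization. RPLP1 differed by -0.09 and 0.12 from scramble with shRNA #2 and shRNA #4, neither of them called. RPL11 is the only measured member of the 5S particle, since RPL5 has no probe set of its own. It was also the only member called in opposite directions against scramble with the 2 hairpins, although under quantile normalization its differences were 0.02 and 0.15, neither of them called.

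Of the proteins around the peptide exit tunnel, RPL39, RPL19, RPL35, RPL31 and RPL23A were members. With shRNA #4 against shRNA #2, RPL39 rose by 0.29 (adjusted p = 0.0024), RPL19 by 0.23 (adjusted p = 0.019) and RPL35 by 0.20 (adjusted p = 0.033). The call of RPL35 was lost on leaving out any of 6 arrays (highest adjusted p = 0.098), and its difference became -0.040 under quantile normalization and -0.0057 with centring on the hybridization controls. The call of RPL19 was lost on leaving out any of 2 arrays, and that of RPL39 was kept. RPL31 and RPL23A, with differences of -0.02 and 0.12, were not called. Against scramble RPL39 alone of these 5 was called, with shRNA #4. RPS3, at the site where mRNA enters the small subunit, measured 13.60, 13.51 and 13.54 with shRNA #2 and 13.79, 13.95 and 13.79 with shRNA #4. It was higher by 0.29 between the hairpins (adjusted p = 0.0070), and its scramble arrays, 13.78, 13.68 and 13.69, lay between the 2 groups.

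Of 10 members known from signalling or disease, 4 were higher with shRNA #4 than with shRNA #2: RPS19, RPS4X, RPS24 and RPS14. In this comparison 31 of all 55 members and 14.9% of all probe sets were higher. RPS24 rose by 0.27 (adjusted p = 0.022) and RPS14, whose loss marks the 5q- syndrome, by 0.20 (adjusted p = 0.0094). The call of RPS24 was lost on leaving out any of 4 arrays (highest adjusted p = 0.073). RPS14 became -0.25 with the mean of its probe sets, -0.028 under quantile normalization and -0.0013 with centring on the hybridization controls. RPS6, the substrate of the S6 kinases, differed little, with 13.72, 13.69 and 13.69 in scramble cells, 13.70, 13.62 and 13.66 with shRNA #2, and 13.71, 13.76 and 13.74 with shRNA #4. Its difference between the hairpins was 0.07 (adjusted p = 0.058). RPS7, RPL22, RPL35A and RPL38 were not called in any comparison by the probe set used, and RPL24 rose with shRNA #4 against scramble as given above. RPL35A had a difference of 0.28 from scramble with shRNA #4, with a standard error of 0.13, since its scramble arrays ran from 12.82 to 13.29.

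RPL39L differed from the rest. It is an intronless copy of RPL39 that is expressed in testis and in some cancer cells and takes the place of RPL39 at the exit tunnel. It measured 9.60, 9.39 and 9.20 in scramble cells, 9.25, 9.26 and 9.24 with shRNA #2, and 8.40, 8.49 and 8.53 with shRNA #4. The arrays with shRNA #4 lay below the other 6, and those of scramble and shRNA #2 overlapped. RPL39L was 1.90-fold lower with shRNA #4 than in scramble cells (log2 difference -0.93 ± 0.096 SE, adjusted p = 0.0018) and 1.72-fold lower than with shRNA #2 (-0.78 ± 0.096 SE, adjusted p = 0.0014). Against scramble, shRNA #2 differed by -0.15 (adjusted p = 0.38). Quantile normalization gave -0.89 (adjusted p = 0.0029) with shRNA #4 against scramble, and centring on the hybridization controls gave -1.12 (adjusted p = 0.00083). RPL39 itself differed by 0.19 in the same comparison, as given above. The other copy inside the rule with a clear signal, RPL36AL, moved upwards with shRNA #4.

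Probe sets of the same gene did not always move together. RPL22, an RNA-binding large subunit protein, has 5 probe sets. The brightest, used for the gene, differed by -0.11 with shRNA #2 and was not called (adjusted p = 0.15). A dimmer one, 221726_at, measured 11.22, 11.25 and 11.33 in scramble cells, 10.40, 10.70 and 10.43 with shRNA #2, and 11.34, 11.52 and 11.35 with shRNA #4. It fell by 0.75 with shRNA #2, without overlap (adjusted p = 0.0024), and was higher by 0.89 with shRNA #4 than with shRNA #2 (adjusted p = 0.00066). Another, 214042_s_at, fell by 0.51 with shRNA #2 (adjusted p = 0.019). These 2 read about 11.3 in scramble cells, below the 13.01 to 13.16 of the other 3, which are of the kind whose probes are shared with further sequences.

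RPL31, at the rim of the exit tunnel, behaved likewise with shRNA #4. Its brightest probe set differed from scramble by -0.09 (adjusted p = 0.28). The dimmer 200962_at went from 8.22, 8.07 and 8.06 in scramble cells to 7.21, 7.34 and 7.15. This was a fall of 0.88 (adjusted p = 0.00057), and 221593_s_at fell by 0.54 (adjusted p = 0.036). With shRNA #2, 200962_at fell by 0.31 (adjusted p = 0.014), and 221593_s_at differed by 0.40 and was not called (adjusted p = 0.092). In RPS14 and RPS21 a probe set was called in the direction opposite to the one used, lower with shRNA #4 than with shRNA #2. For RPS14 this was 217298_at, which lay at the floor in both the scramble and the shRNA #4 arrays. For RPS21 it was 214097_at, with levels of 9.68 in scramble, 10.26 with shRNA #2 and 9.82 with shRNA #4. Of the 38 probe sets not used for a gene, 5 were called lower and 2 higher with shRNA #2, 2 lower and 1 higher with shRNA #4, and 4 lower and 9 higher between the hairpins. Over all probe sets the shares lower and higher were 9.95% and 10.7%, 9.75% and 9.05%, and 16.1% and 14.9%.

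**Figure D4:**
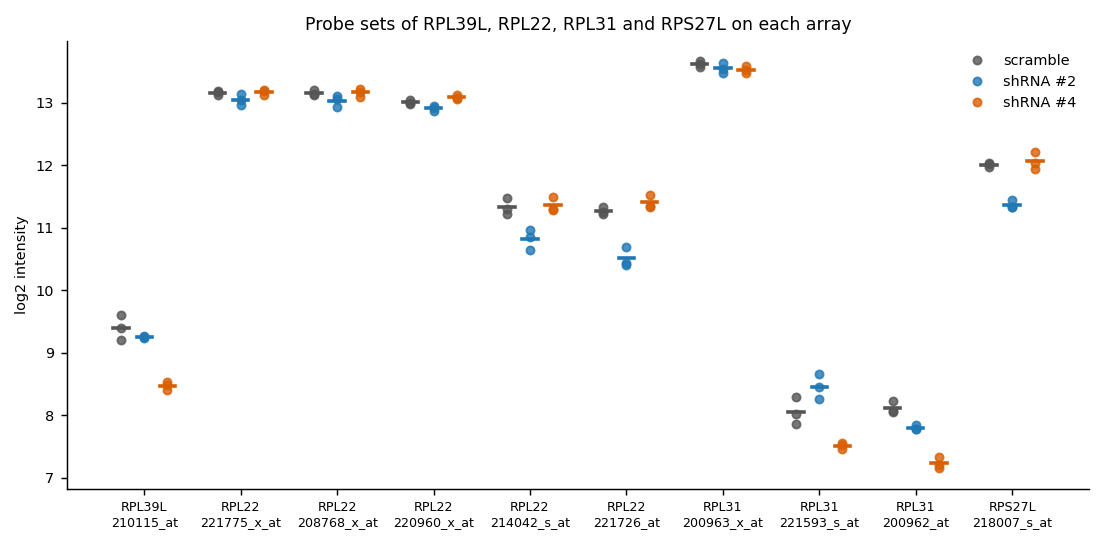
Log2 intensity on each array of the probe sets of RPL39L, RPL22 and RPL31 and of RPS27L, which is outside the rule; points are arrays and bars group means. RPL39L is lowest with shRNA #4, the 2 dimmer RPL22 probe sets and RPS27L are lowest with shRNA #2, and the bright probe sets of RPL22 and RPL31 lie close together in all groups.

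Of the paralogs outside the rule, RPS27L, a copy of RPS27 that p53 induces, fell by 0.64 with shRNA #2 (adjusted p = 0.0019), from a mean of 12.01 to 11.37. It was 0.69 higher with shRNA #4 than with shRNA #2 (adjusted p = 0.00069), and shRNA #4 differed from scramble by 0.05 (adjusted p = 0.74). RPL26L1 differed by 0.23, 0.11 and -0.12 in the 3 comparisons, with no call. FAU, which encodes RPS30 fused to a ubiquitin-like protein, differed by 0.01, 0.21 and 0.20, also with no call.

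Elongation factors and other genes whose mRNAs are listed as TOP mRNAs were counted in the same way. Of 16 measured, 1 rose and 2 fell with shRNA #2 (median -0.05), 6 rose and 0 fell with shRNA #4 (median 0.15), and 9 rose and 0 fell between the hairpins (median 0.25, limma). At an unadjusted p under 0.05 there were 7 and 10 higher and 0 lower in the last 2 comparisons. Over all 22215 probe sets 3468 were higher and 3402 lower, and 4216 and 4429, at that threshold. The shares of all probe sets called higher and lower by limma were 10.7% and 9.95%, 9.05% and 9.75%, and 14.9% and 16.1%. EIF3E, a subunit of the initiation factor eIF3, rose by 0.23 with shRNA #4 (adjusted p = 0.0013) and by 0.25 between the hairpins (adjusted p = 0.00042). EIF4B, an initiation factor with a TOP mRNA, fell by 0.27 with shRNA #2 (adjusted p = 0.0053) and rose by 0.35 with shRNA #4 (adjusted p = 0.0027). EIF3H rose by 0.51 with shRNA #4 (adjusted p = 0.00040) and by 0.14 with shRNA #2 (adjusted p = 0.025). Its call with shRNA #2 was lost on leaving out any of 4 arrays (highest adjusted p = 0.080). The medians of this list became 0.05, 0.03 and 0.04 under quantile normalization and -0.03, -0.04 and 0.05 with centring on the hybridization controls.

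Further lists of the translation and ribosome assembly machinery were counted in the same way. Over all probe sets 10.7% rose and 9.95% fell with shRNA #2, and 9.05% and 9.75% with shRNA #4. Between the hairpins 14.9% were higher and 16.1% lower. Of 52 proteins of the mitochondrial ribosome, 31 rose and 2 fell with shRNA #2 (median 0.41), 11 rose and 7 fell with shRNA #4 (median -0.01), and 3 were higher and 29 lower with shRNA #4 than with shRNA #2 (median -0.39). MRPL17 rose by 0.89 with shRNA #2 (adjusted p = 0.00021), and MRPL48 fell by 0.95 (adjusted p = 0.00022). Under quantile normalization the counts were 31 and 2, 12 and 6, and 4 and 28. With centring on the hybridization controls they were 24 and 2, 1 and 9, and 1 and 36.

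Of 45 ribosome biogenesis factors, 20 rose and 3 fell with shRNA #2 (median 0.39), 7 rose and 8 fell with shRNA #4 (median -0.05), and 2 were higher and 25 lower between the hairpins (median -0.41). The shares over all probe sets were 10.7% and 9.95%, 9.05% and 9.75%, and 14.9% and 16.1%. EMG1, a methyltransferase of 18S rRNA, rose by 0.85 with shRNA #2 (adjusted p = 0.00037), and GNL2, a GTPase of large subunit assembly, by 0.62 (adjusted p = 0.0015). NOLC1, a nucleolar chaperone of small nucleolar RNPs, rose by 0.54 with shRNA #2 (adjusted p = 0.0069) and fell by 0.54 with shRNA #4 (adjusted p = 0.0078). The median between the hairpins was -0.44 under quantile normalization and -0.62 with centring on the hybridization controls.

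For RNA polymerase I, which transcribes the rRNA precursor, and its factors, 4 of 13 rose and 0 fell with shRNA #2 by limma (6 and 0 at an unadjusted p under 0.05), 1 rose and 1 fell with shRNA #4, and 1 was higher and 5 lower between the hairpins. Over all probe sets the shares called were 10.7% and 9.95%, 9.05% and 9.75%, and 14.9% and 16.1%. At the unadjusted threshold 3717 of 22215 probe sets rose and 3281 fell with shRNA #2. The polymerase subunit gene POLR1G fell by 1.31 with shRNA #4 (adjusted p = 0.0027). TAF1A, a subunit of the selectivity factor of this polymerase, rose by 0.92 with shRNA #2 (adjusted p = 0.0093).

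Of 29 initiation factors, 6 rose and 3 fell with shRNA #2 (median 0.16), where 10.7% of all probe sets rose and 9.95% fell. With shRNA #4, 1 rose and 1 fell (median -0.01), against 9.05% and 9.75%. Between the hairpins 5 were higher and 6 lower (median -0.14), against 14.9% and 16.1%. The largest changes were falls with shRNA #2 in EIF2S3, the gamma subunit of eIF2, by 1.24 (adjusted p = 0.0011), and in EIF1AX by 1.12 (adjusted p = 0.0023).

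Of 18 regulators of ribosomal protein synthesis, 5 rose and 3 fell with shRNA #2, 4 rose and 4 fell with shRNA #4, and 4 were higher and 8 lower between the hairpins. Of all probe sets 10.7% and 9.95%, 9.05% and 9.75%, and 14.9% and 16.1% were called in these comparisons. LARP1, which binds the TOP motif, rose by 0.45 with shRNA #2 (adjusted p = 0.0010) and by 0.15 with shRNA #4 (adjusted p = 0.049). The latter rise passed the threshold narrowly, and the hybridization controls differed by 0.19 in that comparison. EIF4EBP1, a repressor of cap-dependent translation and a target of mTORC1, fell by 0.79 with shRNA #4 (adjusted p = 0.0019). TSC1, an inhibitor of the mTORC1 pathway, rose by 1.5 on the log2 scale with shRNA #4 (adjusted p = 0.0018), and its partner TSC2 fell by 0.64 with shRNA #2 (adjusted p = 0.0090). The fall of TSC2 is that of its brightest probe set, and its sign turned with the mean of the gene's probe sets. MXI1, an antagonist of MYC, fell by 2.14 with shRNA #2 (adjusted p = 0.0013) and was at 9.72 in scramble cells and 9.73 with shRNA #4.

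**Figure D5:**
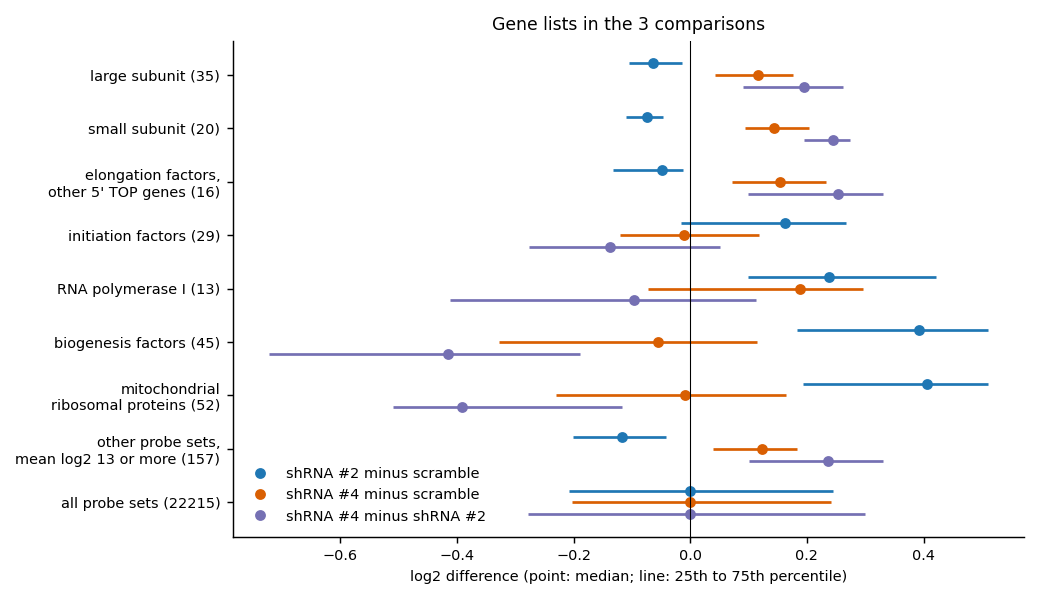
Median log2 difference (point) and the 25th to 75th percentile (line) of each gene list in the 3 comparisons, with the number of genes or probe sets measured in parentheses. The ribosomal protein genes, the elongation factor list and the other probe sets with a mean log2 level of at least 13 lie on the same side of 0 in each comparison, whereas the biogenesis factors and mitochondrial ribosomal proteins have medians of 0.39 and 0.41 with shRNA #2; under quantile normalization the medians of the ribosomal protein genes were 0.02, 0.00 and -0.02 and those of the elongation factor list 0.05, 0.03 and 0.04.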

How the data were processed

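Each of 9 samples had 200 ng of RNA amplified to biotinylated cRNA for its own Affymetrix array, per the labels' protocols. The deposited table holds linear intensity values, which the authors had scaled to a common trimmed mean near 500, as tested on the values. The software is not given in the sources used here. Of 22277 probe sets, 62 controls were left out of the tests. A floor of 16 was applied before the log2 transform. Group means were estimated jointly over the 9 arrays in limma 3.58.1 (lmFit, eBayes; R 4.3.3). P-values are two-sided and adjusted by Benjamini-Hochberg over 22215 probe sets per comparison, with calls under 0.05. Gene names are the platform annotation's. The script was tested on simulated data.

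The members, gene lists and tests were chosen with earlier results of these data known. Named are the called members (the 6 largest each way per comparison), the members in lists by role, those whose probe sets were called in opposite directions, the brightest and dimmest member, paralogs, and up to 4 genes per other list and comparison by smallest p. Members named outside this rule, the probe sets of RPL22, RPL31 and RPS21, and the smallest called rise were chosen after their values were seen. Alternatives were other scalings, floors and probe set choices, a filter on dim probe sets, and each array left out. The number of arrays limits the precision.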

Additional observations from a re-analysis of the deposited data

Results flagged for a closer look

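RPL11 differed between the hairpins. It was lower than scramble on all 3 arrays with shRNA #2 and higher on all 3 with shRNA #4, and the test of shRNA #4 against shRNA #2 gave a log2 difference of 0.350 (limma, adjusted p = 0.00012). Quantile normalization reduced this to 0.13 (adjusted p = 0.068) and centring on the hybridization controls to 0.15 (adjusted p = 0.31).

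The hybridization control probe sets, which were left out of the tests of genes and served only for an added centring, were higher with shRNA #4 than in scramble by a mean log2 difference of 0.189. The 3 arrays with shRNA #4 read 10.66, 10.55 and 10.54 and the scramble arrays 10.49, 10.32 and 10.38.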

How the results depend on the processing

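The direction of RPL39L and its calls with shRNA #4 were kept under each alternative. The count of rises with shRNA #2, 0, became 4 under quantile normalization and 1 with the mean of a gene's probe sets. The count of falls with shRNA #2, 6, became 3 under quantile normalization, 1 with median centring, 0 with a floor of 1, 1 with the filter on dim probe sets (53 members left) and 0 with centring on the hybridization controls. The rises with shRNA #4, 11, became 3 under quantile normalization, 7 with median centring, 0 with a floor of 1, 5 with the filter and 0 with the control centring. The falls with shRNA #4, 1, became 4 under quantile normalization and 2 without the _x_at probe sets, with the mean of probe sets, and with the genes that share probe sets with small RNA genes (67 genes). Between the hairpins the 31 rises became 3 under quantile normalization, 9 with a floor of 1 and 0 with the control centring, and the 1 fall became 7 under quantile normalization and 2 without the _x_at probe sets or with the mean of probe sets. The median differences became 0.020, 0.00 and -0.025 under quantile normalization, and -0.067 and -0.0013 for the comparisons with shRNA #4 under the control centring. The large minus small difference between the hairpins, -0.05, became -0.012 with the mean of probe sets and -0.020 with the genes that share probe sets. With shRNA #2, 0.01 became -0.013 under quantile normalization and -0.016 with the mean of probe sets, and with shRNA #4, -0.03 became -0.0033 and, with the genes that share probe sets, -0.0065.

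Leaving out each array gave 3 to 9 falls with shRNA #2 (median -0.11 to -0.05), 5 to 16 rises and 1 to 2 falls with shRNA #4 (median 0.11 to 0.15), and 23 to 39 rises and 1 to 2 falls between the hairpins (median 0.17 to 0.26). The second fall appeared without replicate 3 of shRNA #4. The large minus small difference ranged from -0.0029 to 0.014, from -0.035 to 0.0018 and from -0.072 to -0.043. Of the 30 calls of named members, 12 were lost on leaving out at least 1 array.

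Among called members, signs turned under quantile normalization in 1 of 6 with shRNA #2 and 10 of 32 between the hairpins, with the control centring in 4 of 12 with shRNA #4 and 7 of 32 between the hairpins, and with the mean of probe sets in 2 of 32 between the hairpins. Of the named genes these included RPL11 with shRNA #2 (0.019 under quantile normalization). With shRNA #4 they were RPL24 (-0.0096 with the control centring), RPL37, RPL7 and RPL9. Between the hairpins they included RPL35 (-0.040 and -0.0057), RPLP1 (-0.024 under quantile normalization) and RPS14 (-0.028 and -0.0013, and -0.25 with the mean of probe sets). RPS9, RPL27 and RPL9 also turned there under both scalings, RPS10 under quantile normalization and RPS21 with the mean of probe sets (-0.092). TSC2 with shRNA #2 became 0.13 with the mean of probe sets. The cause was not tested.

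Replicate numbers do not mark shared cultures in the labels. Same-numbered arrays correlated by 0.057 to 0.29 in their deviations from group means, and 18 of 18 comparisons were highest with the array's own number, a hint from the data. These 18 are not independent, since each pair of groups was counted from both sides and deviations within a group sum to 0. With a replicate block, 9 members fell with shRNA #2, 19 rose with shRNA #4, and 37 rose and 1 fell between the hairpins. The block also raised the calls over all probe sets, both directions together. They went from 4589 to 5345 with shRNA #2, from 4178 to 4913 with shRNA #4 and from 6881 to 7581 between the hairpins.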
